A study of Mus musculus with 12 samples.

Results

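Spp1, which encodes the secreted phosphoprotein osteopontin, and Cd44, which encodes one of its cell-surface receptors, were followed across the annotated cell classes of 6 mouse mammary tumours to see which cells carried Spp1 mRNA in each tumour and which carried its receptor. Both genes were listed by name, without a threshold on measured values. They are 2 of the 19369 genes counted in the libraries of whole tumours and of the 18574 genes counted in the libraries of sorted immune cells. In the RefSeq table of GRCm38.p6 (the assembly also called mm10, the build in the submitters' processing notes), Spp1 (gene ID 20750) spans chr5:104435111-104441053 and Cd44 (gene ID 12505) spans chr2:102811141-102901669. Counts were deposited per gene, so exons and the many splice forms of Cd44 were not told apart.

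Osteopontin is an acidic matrix protein of the SIBLING family. It binds cells through integrins, by its RGD motif and a neighbouring site that proteases uncover, and through forms of CD44. CD44 is also the main receptor for hyaluronan, a glycosaminoglycan made by hyaluronan synthases, and it is shed by membrane proteases and tied to actin by ezrin, radixin and moesin. In tumours, osteopontin is known from carcinoma cells and from macrophages, where high Spp1 and high Cxcl9 have been used to mark opposite macrophage programmes, and Cd44 marks activated and memory T cells.

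The tumours grew from 4T1 cells implanted in the mammary fat pads of female BALB/c mice, aged 9 to 11 weeks, a mouse model of triple-negative breast cancer. Of the 6 groups, 5 were clones (E, M, EM1, EM2 and EM3), each grown from a single 4T1 cell, and the last was the uncloned parental 4T1 line. The design text places the set of clones along an epithelial to mesenchymal range, and the labels do not say where each clone lies. Each group was 1 tumour, so a clone or line, its tumour and its mouse cannot be told apart. Each tumour gave a library of all cells ("Total") and a library of cells captured with CD45 beads ("CD45"), CD45 being the pan-leukocyte surface protein. Digestion used hyaluronidase, an enzyme that cuts the hyaluronan bound by CD44, in every group.

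The 12 libraries held 6709 to 13467 cells and 28083101 to 122055131 UMIs (unique molecular identifiers, the counted molecules). The median cell had 1557 to 10042 UMIs. Scrublet-type doublet scores marked 3331 of 115612 cells (2.88%), which were removed, and 112281 cells were kept. Libraries of the same tumour shared 850 to 1732 of the 16-base droplet barcodes, and so did libraries of E with EM3 and of EM1 with EM2 (818 to 1760), against 46 to 211 in the other 52 pairs. Of full barcodes, the cells' own labels, those closely linked libraries had 0 in common and the other pairs 0 to 189. E with EM3, and EM1 with EM2, are therefore compared directly below where their values bear on a result. The annotated classes carried their markers: the summed level of 8 macrophage genes was 9711 to 17240 CPM (UMIs per 1000000 UMIs of the class) in Total macrophages and 81.6 to 412 CPM in tumour cells, with none of the 8 at 0 in tumour cells. Conversely, Ptprc, the gene of CD45, was at 3.07 to 20.7 CPM in tumour cells and at 250 to 302 CPM in macrophages.

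Tumour cells had the highest Spp1 level of the annotated classes of at least 50 cells in 5 of the 6 Total libraries, and in the parental tumour 1 other class, fibroblasts, was above them. Spp1 in tumour cells was 7928 CPM in EM2, 6960 in EM3, 6802 in M, 6418 in the parental tumour, 6348 in EM1 and 5382 in E (mean 6640 ± 837, SD, n = 6 tumours). The highest of these was 1.47 times the lowest, a narrow range. Granulocytes had 4092 CPM in the parental tumour, 4026 in M, 3848 in EM2, 3282 in EM1, 2404 in EM3 and 2311 in E. Macrophages had 4941 CPM in the parental tumour, 3002 in E, 2518 in M, 2146 in EM3, 1917 in EM2 and 1021 in EM1 (mean 2591 ± 1330). Macrophage levels thus spanned 4.84-fold between EM1 and the parental tumour, far more than the tumour cells did. Fibroblasts, which make collagen matrix, had 6909 CPM in the parental tumour, 3273 in EM3, 2398 in EM2, 1631 in EM1, 1432 in E and 1378 in M. The parental fibroblasts stood apart from those of the other 5 tumours, and so did their keratins, epithelial genes, at 843.5 CPM against 126 to 382 CPM. The part of these in the Spp1 level was not tested. Exact 95% Poisson intervals of these sums cover counting error only, and 1 tumour per clone allows no test between clones.

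**Figure D1:**
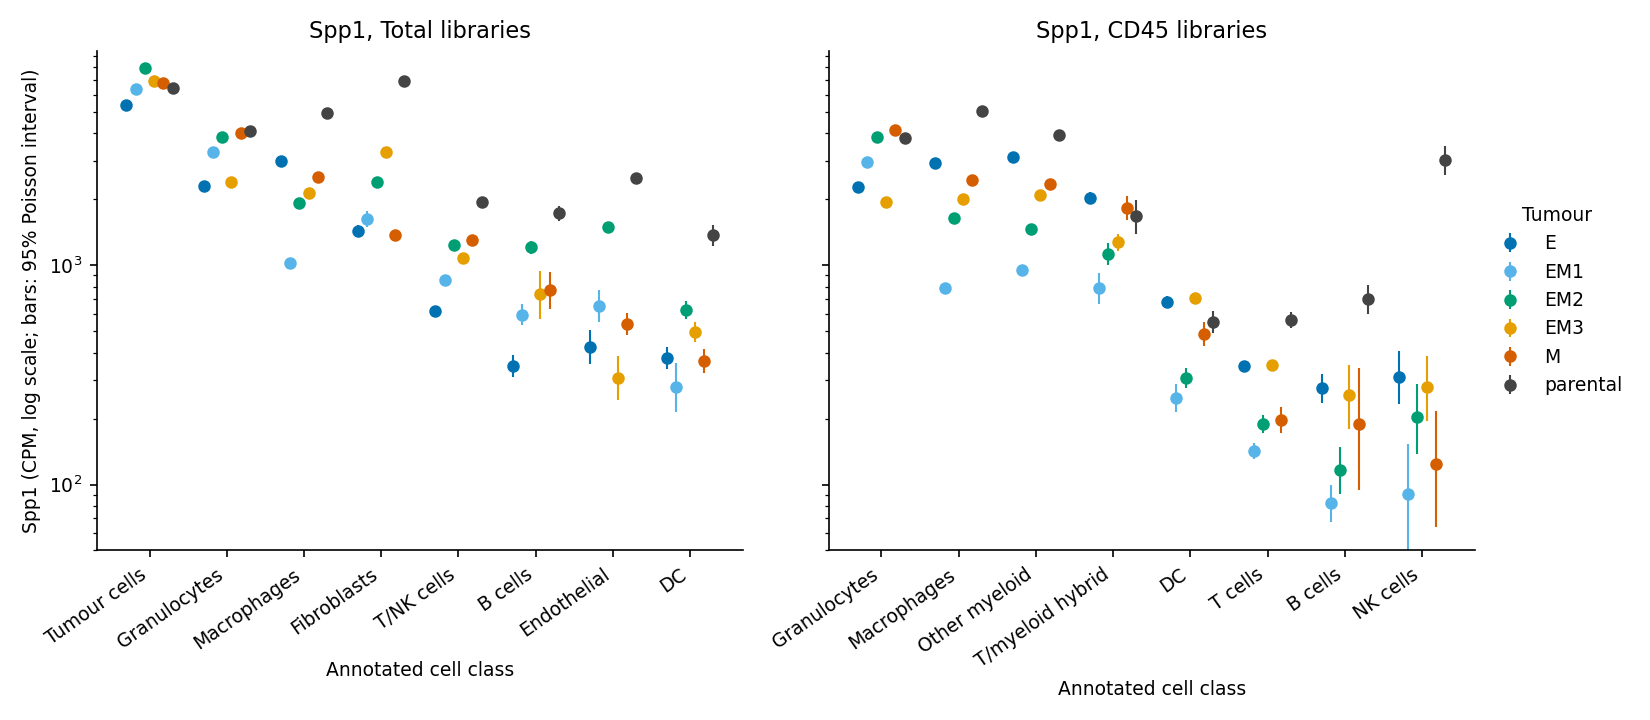
Spp1 level (CPM, log axis) in each annotated class of the Total libraries (left) and CD45 libraries (right), 1 point per tumour, coloured by tumour, with 95% Poisson intervals of the counts as bars. Tumour cells lie between 5382 and 7928 CPM, while macrophages spread from 1021 to 4941 CPM in Total and from 792 to 5059 CPM in CD45 libraries.

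The CD45 libraries gave nearly the same macrophage levels: 5059 CPM in the parental tumour, 2925 in E, 2445 in M, 2013 in EM3, 1648 in EM2 and 792 in EM1. Over the 6 tumours the macrophage levels of the paired libraries had Pearson r = 0.999 (exact permutation p = 0.00139, adjusted p = 0.00694 over 5 relations) and Spearman rho = 1 (exact p = 0.00278, adjusted p = 0.0139). Without EM1 and the parental tumour, the 2 farthest from the median, r was 0.993. The paired libraries come from the same mice, so this is agreement of measurement within tumours, and the Total level was 0.977 to 1.29 times the CD45 level. Granulocytes of the CD45 libraries had 4134 CPM in M, 3847 in EM2, 3807 in the parental tumour, 2962 in EM1, 2269 in E and 1940 in EM3. They exceeded macrophages in EM1, EM2 and M and were below them in E, EM3 and the parental tumour. The granulocyte level leaned on shallow cells: with at least 650 genes required per cell it was 1844 CPM in EM2 and 2079 CPM in the parental CD45 library.

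The class called Other Myeloid, whose cells carried the macrophage genes at 12280 to 18390 CPM, had Spp1 at 3921 CPM in the parental tumour, 3114 in E, 2356 in M, 2084 in EM3, 1461 in EM2 and 955 in EM1. The tumours stood in the same order by their macrophages. Genes of the osteoclast, a bone-resorbing cell known for high Spp1, were also read in this class: the summed level of 5 (Ctsk, Acp5, Calcr, Oscar and Dcstamp) was 7322 CPM in the parental tumour, 2618 in EM2, 1574 in EM3, 975 in EM1, 942.5 in E and 316 in M. The parental tumour was highest in both the osteoclast sum and Spp1, and M was lowest in the sum and the third highest in Spp1. The part of such cells in the Spp1 level was not tested. Dendritic cells had 248 to 706 CPM of Spp1, T cells 143 to 563 CPM and B cells 82.1 to 701 CPM. NK cells had 90.9 to 311 CPM in 5 tumours and 3021 CPM in the parental tumour, where the class held 38 cells. The class called T/Myeloid Hybrid, of 26 to 94 cells, had 785 to 2031 CPM, between T cells and macrophages.

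Because the classes differ in cell number and in RNA per cell, the share of a library's Spp1 UMIs does not follow the level alone. Tumour cells held 93.6% of the Spp1 UMIs of the Total library in EM1, 87.2% in EM2, 80.5% in M, 78.9% in the parental tumour, 68.2% in EM3 and 26.6% in E (mean 72.5% ± 24.0, n = 6). Macrophages held 59.6% in E, 27.7% in EM3, 14.6% in the parental tumour, 12.8% in M, 8.39% in EM2 and 3.68% in EM1 (mean 21.2% ± 20.5). Macrophages were thus the main holders of Spp1 in E, the tumour with 769 tumour cells (7.13% of the library), and tumour cells were in the other 5, where they made up 23.0% to 55.7% of the cells. Granulocytes held 0.519% to 7.72%. The deposited cells of these libraries started at 250 (EM1) to 650 (parental) genes. Shares of cells and UMIs, above all of shallow classes, are thus compared between unlike limits. The part of these limits in the shares was not tested. In the CD45 libraries macrophages held 65.1% (EM1) to 88.0% (parental), granulocytes 4.33% (parental) to 25.6% (M) and Other Myeloid cells 5.47% (M) to 12.05% (EM1). The share in M granulocytes went with the number of these cells, 3766, or 50.6% of that library.

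**Figure D2:**
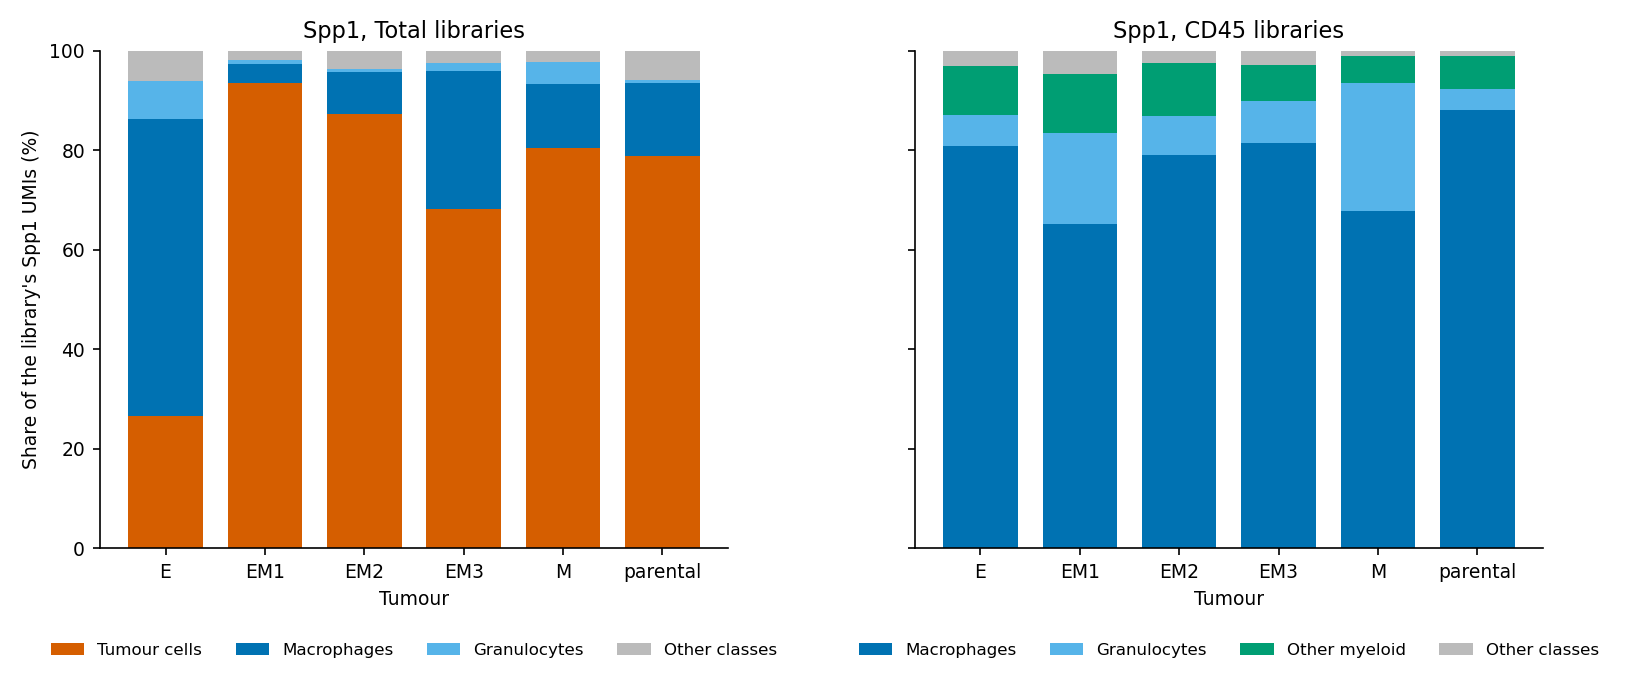
Share (%) of all Spp1 UMIs of a library that lay in each class, 1 bar per tumour, for the Total libraries (left) and the CD45 libraries (right), where no tumour cell class was annotated. In the Total libraries tumour cells hold 26.6% in E and 68.2% to 93.6% in the other 5 tumours.

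Spp1 UMIs were also found in lymphocytes, and their values are given beside those of the other classes as a comparison level. No profile of empty droplets was measured. In the Total libraries B cells had 349 to 1733 CPM of Spp1 and T/NK cells 616 to 1952 CPM, which was 1.27 to 10.3 times (B cells) and 1.78 to 6.63 times (T cells) the level in the CD45 libraries of the same tumours. Keratins, epithelial genes that lymphocytes lack, were also counted in Total B cells, at 186 to 663 CPM. The number of Spp1 UMIs per keratin UMI in B cells was 0.745 to 1.44 times that of the tumour cells of the same tumour (median 1.16), and was above it in 4 of 6 tumours. In T/NK cells it was 1.19 to 2.44 times (median 1.42) and in dendritic cells 1.05 to 2.51 times (median 1.70). In macrophages it was 4.65 to 22.1 times (median 12.5), in granulocytes 2.30 to 4.82 times (median 3.15) and in fibroblasts 2.22 to 7.78 times (median 3.99). In endothelial cells it was 0.694 to 2.87 times (median 2.095). Of these classes, all but the B and endothelial cells were above the tumour cells' ratio in every tumour, T/NK and dendritic cells by the smaller factors. Macrophages and granulocytes also hold Spp1, so the tumour cells' ratio is not that of a whole Total library. A ratio above it therefore does not tell where the Spp1 of a class came from, which was not tested. In the CD45 libraries B cells had 0 to 3 keratin UMIs, and where any was counted the ratio was 22.7 to 86.5 Spp1 UMIs per keratin UMI, against 1.13 to 3.46 in tumour cells. Macrophages of the CD45 libraries had 217 to 1397. The B cell ratios rest on very few keratin UMIs, and the tumour cells come from the other kind of library. The source of Spp1 in B cells was not tested.

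The share of cells with a Spp1 UMI was 94.4% to 99.8% in tumour cells and, after each cell was thinned to 1000 UMIs to remove depth differences, 78.5% to 94.7%. In CD45 macrophages it was 52.4% to 91.2% as counted and 28.3% (EM1) to 75.2% (parental) after thinning. In CD45 granulocytes it was 41.8% to 62.0% as counted and 46.0% to 60.2% after thinning. B cells of the CD45 libraries, as the comparison level, had a UMI in 8.06% to 45.8% of cells, and in 3.25% to 44.9% after thinning. CD45 T cells had one in 11.0% to 44.2%, and in 10.2% to 39.6% after thinning. Median depths were 6378 to 15253 UMIs in tumour cells, 5088 to 7623 in CD45 macrophages, 689.5 to 1220 in CD45 granulocytes, 978.5 to 1719 in T cells and 886 to 1491 in B cells. Too shallow for thinning were 7014 of 13446 granulocytes, 3161 of 9878 T cells, 857 of 1841 B cells, 124 of 23638 macrophages and 98 of 19171 tumour cells. Macrophages exceeded B cells within each tumour, for example 28.3% against 3.25% in EM1 and 75.2% against 44.9% in the parental tumour. Lymphocytes of the parental tumour had the highest shares, so single parental cells with a Spp1 UMI are not read as producers.

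Spp1 was unevenly spread among cells of 1 class. The tenth of tumour cells with most Spp1 UMIs held 30.4% to 46.8% of the UMIs of their class. The matching shares were 43.1% to 66.4% in CD45 macrophages and 59.0% to 68.8% in CD45 granulocytes. The median CD45 granulocyte had 0 or 1 Spp1 UMI in each tumour, so the class average rested on a minority of its cells.

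Classes present with at least 50 cells in every tumour were put in order of mean log2(CPM + 10), and neighbours in the order were compared over the 6 tumours by a two-sided exact sign-flip permutation test, whose smallest p is 0.03125. In the Total libraries tumour cells exceeded granulocytes by 1.02 on the log2 scale (SD 0.32) in 6 of 6 tumours, with an exact adjusted p of 0.0521. Granulocytes, fibroblasts and macrophages did not separate: the difference was 0.45 between the first and second of them (adjusted p = 0.352, exact test) and 0.03 between the second and the last (adjusted p = 0.938, exact test). Macrophages exceeded T/NK cells by 1.07 and T/NK cells exceeded dendritic cells by 1.11, each in 6 of 6 tumours with an exact adjusted p of 0.0521. In the CD45 libraries granulocytes and macrophages (0.51, higher in 3 of 6, exact adjusted p = 0.417) and macrophages and Other Myeloid cells (0.03, exact adjusted p = 0.719) did not separate either. Other Myeloid cells exceeded dendritic cells by 2.15 in 6 of 6 tumours, with an exact adjusted p of 0.125. Dendritic cells exceeded T cells by 0.77 in 5 of 6 tumours (exact adjusted p = 0.125). The order of dendritic cells and T cells was thus reversed between the kinds of library. None of these neighbours passed 0.05 after adjustment. Because the smallest p is 0.03125, a pair can pass only where most other pairs of its order also reach that p. Passing or not therefore does not measure the size of a difference, here or in the order of Cd44 below.

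Between clones, Spp1 in tumour cells was 0.34 higher in M than in E on the log2(CPM + 10) scale (95% Poisson interval 0.32 to 0.35) and 0.37 higher in EM3 than in E (0.35 to 0.39). In macrophages of the CD45 libraries Spp1 was lower in M than in E (-0.26, interval -0.27 to -0.24) and lower in EM3 than in E (-0.54, -0.55 to -0.52). The tumour cells and macrophages of M and EM3 thus lay on opposite sides of E, without a test, since each group is 1 tumour. So did those of EM1 (0.24 and -1.87) and EM2 (0.56 and -0.82), while the parental tumour was above E in both (0.25 and 0.79). The sizes moved with the processing. With stricter classes, M over E in tumour cells was 0.19 and EM3 over E was 0.16. As a mean over single cells, M over E was 0.59 in tumour cells and -0.035 in macrophages. Stricter classes kept tumour cells without a UMI of Ptprc, Csf1r, C1qa or Adgre1, and macrophages without one of Krt8, Krt18 or Krt7. They kept 335 of 769 tumour cells in E, 444 of 1930 in EM3 and 2590 of 4566 in M, an uneven loss. None of the differences of M and EM3 from E reached 2-fold. Between M and E tumour cells, 6.59% of 5541 genes passed that size upwards and 8.18% downwards. For EM3 against E tumour cells these background shares were 3.82% and 6.86% of 5320 genes. In macrophages they were 3.21% and 3.68% of 4210 genes for M against E, and 0.601% and 0.706% of 3824 genes for EM3 against E. The 2-fold mark was passed by macrophages of EM1, at -1.87 against E (-1.90 to -1.85). Between EM2 and EM1, which shared droplet barcodes, macrophage Spp1 was 1.05 higher in EM2 in the CD45 libraries (1.02 to 1.08) and 0.90 higher in the Total libraries (0.86 to 0.94). The tumour cells of EM2 were 0.32 above those of EM1 (0.31 to 0.33).

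Spp1 in tumour cells showed no relation past the test with Spp1 in macrophages of the same tumour: r = -0.24 (exact permutation p = 0.689, adjusted p = 0.689) and rho = -0.31 (exact p = 0.564, adjusted p = 0.658), and r was 0.15 without E and EM2. EM2, with the highest tumour cell level, had the second lowest macrophage level, and the parental tumour, with the highest macrophage level, was in the middle of the tumour cells. The tumours thus ranked differently by the level in each of the 2 main sources.

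Macrophage Spp1 was set beside Cxcl9, a chemokine induced by interferon gamma that attracts T cells. Cxcl9 in CD45 macrophages was 550 CPM in EM1, 480 in EM2, 197 in EM3, 175 in E, 42.3 in the parental tumour and 31.0 in M. The tumours with least macrophage Spp1, EM1 and EM2, had most Cxcl9, and M and the parental tumour had least. The ratio of Spp1 to Cxcl9 was lowest in EM1, at 1.44, and highest in the parental tumour, at 119.5, with M at 78.9. Over 6 tumours r was -0.78 (exact permutation p = 0.0611, adjusted p = 0.153) and rho -0.83 (exact p = 0.0583, adjusted p = 0.146), and r was -0.59 without EM1 and the parental tumour, so the relation did not pass the test. In the Total macrophages, examined after the CD45 values were seen, r was -0.86 (exact p = 0.0208) and rho -0.94 (exact p = 0.0167), and r was -0.55 without the same 2 tumours. Arg1, the arginase of suppressive macrophages, was 4026 CPM in EM3, 3869 in E, 2553 in the parental tumour, 1638 in M, 1597 in EM2 and 1305 in EM1. Its relation with Spp1 was weaker (r = 0.56, exact permutation p = 0.260, adjusted p = 0.433; rho = 0.60, exact p = 0.242, adjusted p = 0.403; r = 0.44 without the same 2 tumours). E and EM3, which shared droplet barcodes, had the highest Arg1, and EM1 and EM2, which also shared them, the highest Cxcl9. The part of that sharing in these relations was not tested.

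**Figure D3:**
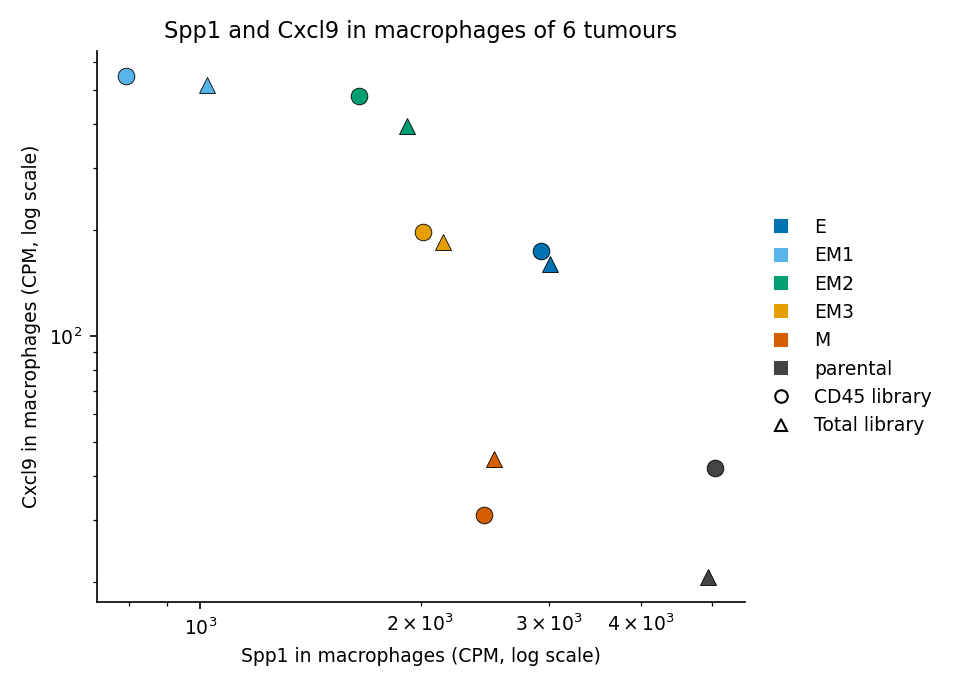
Cxcl9 against Spp1 in macrophages (both CPM, log axes), 1 colour per tumour, circles for CD45 and triangles for Total libraries. EM1 and EM2 lie at low Spp1 and high Cxcl9, and M and the parental tumour at Cxcl9 of 44.7 CPM or less.

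Cd44 was spread more evenly across classes than Spp1, and granulocytes had the most in every library. In the CD45 libraries granulocytes had 3047 CPM in E, 3013 in M, 2884 in EM1, 2776 in EM3, 2519 in the parental tumour and 2220 in EM2 (mean 2743 ± 319). Macrophages had 1505 CPM in E, 1499 in EM3, 1059 in EM2, 1020 in the parental tumour, 955 in M and 951 in EM1. E and EM3, whose libraries shared droplet barcodes, were alike and above the other 4. Among those 4 were EM1 and EM2, which also shared them. Tumour cells of the Total libraries had 1235 CPM in E, 1233 in EM3, 1041 in the parental tumour, 895 in EM2, 847 in EM1 and 783 in M. Tumour cells repeated the pattern of the macrophages, with E and EM3 highest. Total macrophages had 918 CPM (parental) to 1681 CPM (E), and Total granulocytes 1795 CPM (EM2) to 2721 CPM (M). In the Total libraries fibroblasts had 856 to 1399 CPM, B cells 467 to 1215 CPM, T/NK cells 350 to 712 CPM and endothelial cells 101 to 359 CPM. In the CD45 libraries B cells had 223 to 500 CPM and T cells 330 to 745 CPM.

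**Figure D4:**
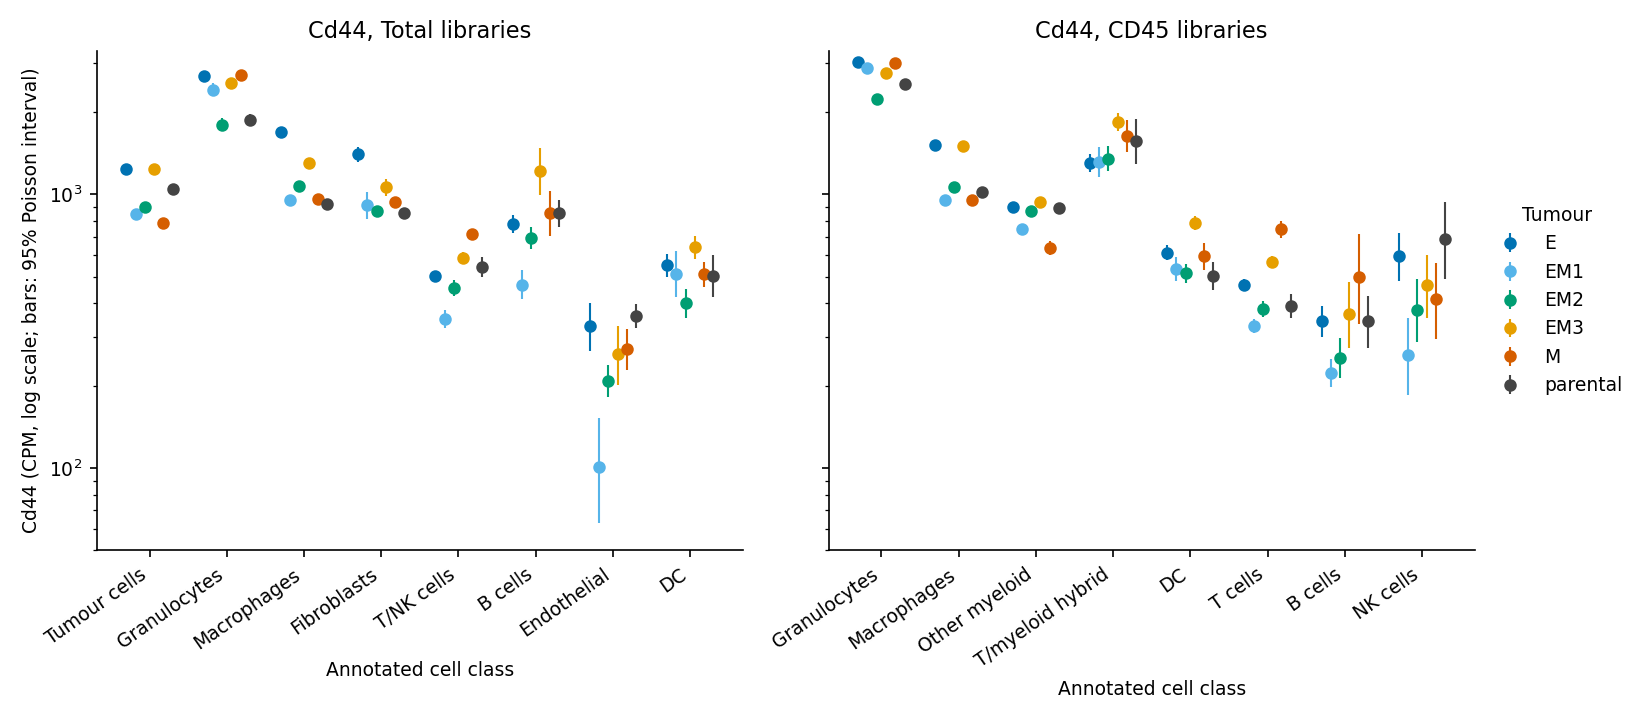
Cd44 level (CPM, log axis) by annotated class in Total (left) and CD45 libraries (right), 1 point per tumour with its 95% Poisson interval. Granulocytes lie between 1795 and 3047 CPM, above macrophages, tumour cells and fibroblasts of the same libraries.

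In the order of Cd44 levels over the CD45 libraries, granulocytes exceeded macrophages by 1.25 on the log2(CPM + 10) scale, macrophages exceeded Other Myeloid cells by 0.47 and Other Myeloid cells exceeded dendritic cells by 0.49, each in 6 of 6 tumours with an exact sign-flip p of 0.03125 and an adjusted p of 0.0417. Dendritic cells exceeded T cells by 0.33 in 5 of 6 tumours (exact adjusted p = 0.0625). Over the Total libraries, granulocytes exceeded macrophages by 1.04 and fibroblasts exceeded dendritic cells by 0.93, each in 6 of 6 tumours with an exact adjusted p of 0.0781. Macrophages and tumour cells differed by 0.17 (higher in macrophages in 5 of 6, exact adjusted p = 0.208), and tumour cells and fibroblasts by 0.00 (exact adjusted p = 1). After thinning to 1000 UMIs, Cd44 was found in 85.5% to 91.2% of CD45 granulocytes, 56.4% to 73.3% of CD45 macrophages, 49.2% to 64.2% of tumour cells, 23.3% to 44.8% of T cells and 18.5% to 33.3% of B cells. As counted, the shares were 75.03% to 88.9%, 92.8% to 98.4%, 93.5% to 98.6%, 26.0% to 59.8% and 18.9% to 40.9%. The deep classes led as counted, and the granulocytes led at equal depth.

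Of the Cd44 UMIs in the Total libraries, tumour cells held 76.8% in the parental tumour, 71.4% in EM1, 61.7% in EM2, 50.8% in M, 38.0% in EM3 and 11.3% in E. Macrophages held 61.7% in E, 52.8% in EM3, 29.5% in EM2, 26.7% in M, 19.6% in EM1 and 16.3% in the parental tumour. Macrophages were thus the larger holder of the receptor's mRNA in E and EM3, and tumour cells in the other 4. Granulocytes held 16.6% in E, 16.3% in M and 1.42% to 5.75% in the others. As for Spp1, these shares are compared between libraries with unlike fewest genes per cell.

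Several lymphocyte subtypes were named by Cd44, and their levels describe the naming. Cd44+ Cd4+ T cells had 546 to 778 CPM and Cd44- Cd4+ T cells 143 to 305 CPM, a ratio of 2.25 to 4.07 within tumours. Foxp3+ Cd4+ T cells, the regulatory T cells, had 684 to 881 CPM, overlapping the Cd44+ subtype and reaching above it, though Cd44 is not in their name. Gzmb+ Cd8+ T cells had 243 to 488 CPM, and 8 cells gave the lowest of these. The NK subtype, of 63 to 234 cells, had 865 to 1470 CPM. The NK class of the same libraries, of 38 to 132 cells, had only 260 to 686 CPM. The class and the subtype are different sets of cells, so neither range stands for NK cells as a whole. Trdc+ cells, T cells with a delta receptor chain, had 670 to 2589 CPM in 6 to 25 cells. Cd44+Cd69+ B cells had 336 to 2019 CPM in 3 to 34 cells, against 171 to 371 CPM in Cd44-MHCIIhi B cells. Spp1 was at 101 to 528 CPM in Cd44+ and at 60.9 to 622 CPM in Cd44- Cd4+ T cells, against 82.1 to 701 CPM in B cells.

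Between clones, Cd44 in tumour cells was lower in M than in E (-0.65 on the log2(CPM + 10) scale, 95% Poisson interval -0.69 to -0.61) and nearly equal in EM3 and E (-0.00, -0.04 to 0.04). CD45 macrophages gave -0.65 (-0.68 to -0.63) and -0.01 (-0.02 to 0.01). In the Total libraries, macrophages of EM3 were 0.37 below those of E (-0.39 to -0.35), so macrophages of the paired libraries gave different values for this pair. EM2 was 0.08 above EM1 in tumour cells (0.05 to 0.10) and 0.15 above it in CD45 macrophages (0.13 to 0.18). M and EM1, not one of the closely linked pairs, were also close, at 955 and 951 CPM in CD45 macrophages. In CD45 granulocytes EM2 was 0.38 below EM1 (-0.38), EM3 was at -0.13 and M at -0.016 against E. The part of the shared droplets in these values was not tested. Across tumours, Spp1 and Cd44 in tumour cells had r = -0.44 (exact permutation p = 0.404, adjusted p = 0.505) and rho = -0.26 (exact p = 0.658, adjusted p = 0.658), and r was 0.36 without E and EM2.

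Macrophages were compared with tumour cells of the same tumours, with edgeR's quasi-likelihood test on class sums of the Total libraries and tumour as a block. Spp1 was lower in macrophages in 6 of 6 tumours, by 1.15 on the log2 scale (-1.15, SE 0.31, edgeR adjusted p = 0.00695). Cd44 was higher in macrophages in 5 of 6 tumours (0.53, SE 0.16, edgeR adjusted p = 0.0138). Both members were called, among 75.5% of the 13963 genes tested (37.7% higher and 37.8% lower), so being called sets neither gene apart. The Cd44 call was lost without the low-count filter (0.35, edgeR adjusted p = 0.127) and with another scaling: with library totals in place of TMM factors it was 0.18 (SE 0.13, edgeR adjusted p = 0.234), a scaling that moved the median of all genes from -0.01 to -0.37 and the share of higher genes among those called from 49.9% to 37.2%. Mean Cd44 was 1146 CPM in macrophages and 1006 CPM in tumour cells. Spp1 with library totals was -1.51 (edgeR adjusted p = 0.00113).

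The counts that follow are read against the 37.7% of all genes that were higher and the 37.8% that were lower in this comparison. Of the related matrix proteins of the SIBLING list, 3 of 5 could be tested and all 3 were lower in macrophages (median -3.98, against -0.01 over all genes). These were Spp1 itself, Dmp1, a mineralisation protein, at 11.98 CPM in macrophages and 394 CPM in tumour cells (-4.81), and Ibsp, bone sialoprotein, at 0.711 and 12.8 CPM (-3.98). Integrins that bind osteopontin were divided, with 5 of 10 higher and 4 lower in macrophages (median -0.16), and with library totals 3 higher and 4 lower. Itga9, which pairs with beta-1 to bind the protease-uncovered site, had 208 CPM in macrophages and 2.46 CPM in tumour cells (6.97), and Itga4, which binds near the same site, had 37.0 and 1.07 CPM (5.88). Itgb5, a partner of the alpha-v chain, was higher in macrophages (1.29), while Itgb3, the other classical partner, had 5.02 CPM in macrophages and 29.7 CPM in tumour cells (-2.03). Itgb1 was at 378 and 1057 CPM (-1.10). Itgav, the alpha-v chain, and Itga5 were called higher under TMM only. The alpha-4 and alpha-9 chains thus lay with macrophages and the beta-1, beta-3, beta-6 and beta-8 chains with tumour cells, and both classes had integrin transcripts for the protein.

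Of the enzymes that cut or cross-link osteopontin, 6 of 7 were tested, and 3 were higher and 2 lower in macrophages (median 1.93), so 5 of 6 were called where 75.5% of all genes were. Tgm2, the transglutaminase that cross-links it, was at 1791 CPM in macrophages and 229 CPM in tumour cells (3.34). Mmp12, the macrophage elastase, was at 923 and 54.6 CPM (4.89) and Acp5, a phosphatase that removes its phosphates, at 340 and 32.2 CPM (3.74). Mmp3, stromelysin, was lower in macrophages, at 7.33 and 142 CPM (-3.97), and F2, prothrombin, was called lower at under 2 CPM in both. Mmp9 was not called, at 126 and 107 CPM (edgeR adjusted p = 0.374).

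For the hyaluronan arm of Cd44, 7 of the 8 genes tested were lower and 1 higher in macrophages (median -2.21, against -0.01 over all genes, of which 37.8% were lower). Has2, the main hyaluronan synthase here, had 33.3 CPM in macrophages and 759 CPM in tumour cells (-4.20), and Ugdh, which makes a sugar precursor, had 99.5 and 474 CPM (-1.83). Has1, Has3, Cemip, Cemip2 and Hyal2 were also lower, and the hyaluronidase Hyal1 was higher (2.10). Of 7 other genes that bind hyaluronan or Cd44, 5 were higher and 1 lower in macrophages (median 5.15): Srgn, the proteoglycan serglycin, had 4139 and 102 CPM (6.11), and Cd74, which joins Cd44 in binding the cytokine Mif, had 12048 and 649 CPM (5.15). Lyve1 and Vcan were higher as well, Hmmr was lower, and Tnfaip6 was higher under TMM only. In both lists most genes were called, as were 75.5% of all genes.

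Of 8 linkers and sheddases of Cd44, 2 were higher (Adam10 and Adam17, proteases that shed it) and 4 lower in macrophages (median -0.15), so 6 of 8 were called where 75.5% of all genes were. The lower ones included Ezr, ezrin, with 150 CPM in macrophages and 820 CPM in tumour cells (-2.01), and Ank3. Msn, the linker moesin, was not called, at 1043 and 1295 CPM (edgeR adjusted p = 0.710). Of 6 regulators of Cd44 splicing, 5 were lower and 0 higher in macrophages (median -0.62), led by Esrp1, an epithelial splicing factor that keeps the variant exons of Cd44, with 1.46 CPM in macrophages and 48.9 CPM in tumour cells (-3.54). No isoform was measured. Between clones, Esrp1 in tumour cells was 240 CPM in E, 0.446 CPM in M and 0.245 CPM in EM3 (-4.58 and -4.61 on the log2(CPM + 10) scale), so the mean given above rested largely on E. Ezr and Ank3 were also more than 2-fold lower in M and EM3, 2 of the 8 linkers and sheddases compared, while Mmp14 was 1.31 higher in M. Of all genes compared, 8.18% (M) and 6.86% (EM3) were that much lower.

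Within macrophages, cells rich in Spp1 were compared with cells poor in Spp1, to see what such cells shared. CD45 macrophages were thinned to 1000 UMIs, and within each tumour cells at or above the 75th percentile of Spp1 UMIs were set against cells at or below the 25th percentile. Spp1 itself was left out of the fit. Mean Spp1 per thinned cell was 2.81 (EM1) to 12.7 (parental) UMIs in the high cells and 0 to 0.375 in the low cells, and a high cell in EM1 was any cell with 1 UMI or more. Of 8202 genes tested by edgeR, 311 were higher (3.79%) and 558 lower (6.8%) in the high cells, 10.6% in all, and with library totals in place of TMM 460 were higher and 431 lower. DESeq2 called 75 higher and 213 lower.

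Fn1, fibronectin, a matrix protein that binds several of the same integrins, led the higher genes. It had 6377 CPM in high and 3450 CPM in low cells of E, 4963 and 2146 in EM1, 7569 and 2762 in EM2, 11465 and 5580 in EM3, 8438 and 3429 in M, and 11960 and 5407 in the parental tumour (log2 1.13, SE 0.07, edgeR adjusted p = 1.72e-11). The high cells were above the low cells in every tumour, by a similar factor. Nt5e, the CD73 enzyme that makes adenosine, followed with a mean of 166 against 79.3 CPM (1.05), then the metallothionein Mt2 (1.01), Pdpn, podoplanin (0.86), Rgcc (0.86), the chemokine Cxcl14 (0.83), Ppp1r3b (0.76), the laminin receptor chain Itga6 (0.71), Arg1 (0.70) and Slc7a2, a transporter of arginine (0.64). Plac8 was the most reduced, with 257 CPM in high and 836 CPM in low cells of E and 82.7 and 451 CPM in the parental tumour (-1.70, edgeR adjusted p = 3.06e-11). Next were Ccl8 (-1.42), the haemoglobin scavenger receptor Cd163 (-1.40), the adhesion molecule Vcam1 (-1.34), the monocyte genes Ly6c2 (-1.27) and Ly6c1 (-1.18), Pltp (-1.07), Tppp3 (-1.03), Ccl5 (-1.02) and C6 (-1.02). The chemokines went both ways, with Cxcl14 higher and Ccl8 and Ccl5 lower in the high cells. Of these 20 genes, 19 were called under all 13 alternatives that kept the tumour block, and C6 was lost with DESeq2. Without the block edgeR called 1 gene.

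Of all genes in this split 3.79% were higher and 6.8% lower. Of a list of genes described with Spp1 in macrophages, 5 of 11 tested were higher in Spp1-high cells (Fn1, Gpnmb, Cd9, Arg1 and Trem2) and 1 lower (Hmox1), with a median of 0.27 against 0.00 over all genes. Gpnmb was higher in 5 of 6 tumours and Trem2 in 6 of 6. Gpnmb was not called with DESeq2 or without E, and Trem2 was not called with DESeq2 or with limits at the 10th and 90th percentiles. With library totals 6 were higher and 0 lower, Hmox1 being lost and Fabp5 gained. Of a list for the opposite programme, 5 of 10 were lower (Cxcl9, Cxcl10, Cd163, H2-Ab1 and H2-Aa) and 0 higher, with a median of -0.29. Cxcl9 had 101 CPM in high and 187 CPM in low cells of E, 344 and 565 in EM1, 295 and 548 in EM2, 128 and 209 in EM3, 4.08 and 43.1 in M, and 10.6 and 66.9 in the parental tumour (-0.95, SE 0.11). High cells had less Cxcl9 in all 6 tumours. The C1q genes, Mrc1 and Folr2 of the same list were not called. Trem2, Hmox1 and Cxcl10 were not called in Total macrophages. Fn1 and Cd9 were also higher in Spp1-high tumour cells. Both lists are given below for these cells and for granulocytes.

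Of the osteopontin enzymes, Mmp9 and Mmp12 were higher and Tgm2 and Acp5 lower in Spp1-high macrophages, and with library totals Acp5 was not called. Mmp9 and Mmp12 were each higher in 5 of 6 tumours, Tgm2 was lower in 6 of 6 and Acp5 in 4 of 6. In the split of Total macrophages, given below, Mmp9 was instead lower in 5 of 6 tumours (-0.71, edgeR adjusted p = 0.0334). Its direction thus differed between the kinds of library. Among its integrins 1 of 6 was lower, Itga9 (-0.28), and 0 were higher, a share near the 10.6% of all genes called. Among Cd44 partners, Mif was higher (0.42) and Lyve1, Vcan and Cd74 lower. Cd44 itself had 1583 CPM in high and 1961 CPM in low cells of E, 1190 and 1066 in EM1, 1256 and 1189 in EM2, 1530 and 1870 in EM3, 1107 and 1267 in M, and 961 and 1611 in the parental tumour. High cells had less Cd44 in 4 of 6 tumours (-0.25, SE 0.08, edgeR adjusted p = 0.0405), a call that was lost without E (adjusted p = 0.139), EM3 (0.145), M (0.0742) or the parental tumour (0.165), with DESeq2, with library totals, and with limits at the 10th and 90th percentiles (0.226). High cells were deeper in 6 of 6 tumours before thinning, for example a median of 7520 against 5035.5 UMIs in the parental tumour and 6957 against 5167.5 in E. The summed tumour epithelial markers were higher in 5 of 6 tumours (4.08 to 63.997 against 8.25 to 37.9 CPM), the 8 macrophage markers were higher in 2 of 6 (9804 to 15581 against 8776 to 17147 CPM) and Ptprc was lower in 6 of 6 (243 to 275 against 297 to 363 CPM). Markers of endothelial cells were higher in the high cells in 0 of 6 tumours (53.2 to 97.9 against 68.6 to 109.9 CPM), those of dendritic cells in 1 of 6 (21.1 to 61.2 against 33.9 to 81.8 CPM) and those of T cells in 1 of 6 (8.16 to 26.2 against 12.6 to 59.7 CPM). The median doublet score of the kept high cells was above that of the low cells in 5 of 6 tumours. The part of these in the result was not tested.

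**Figure D5:**
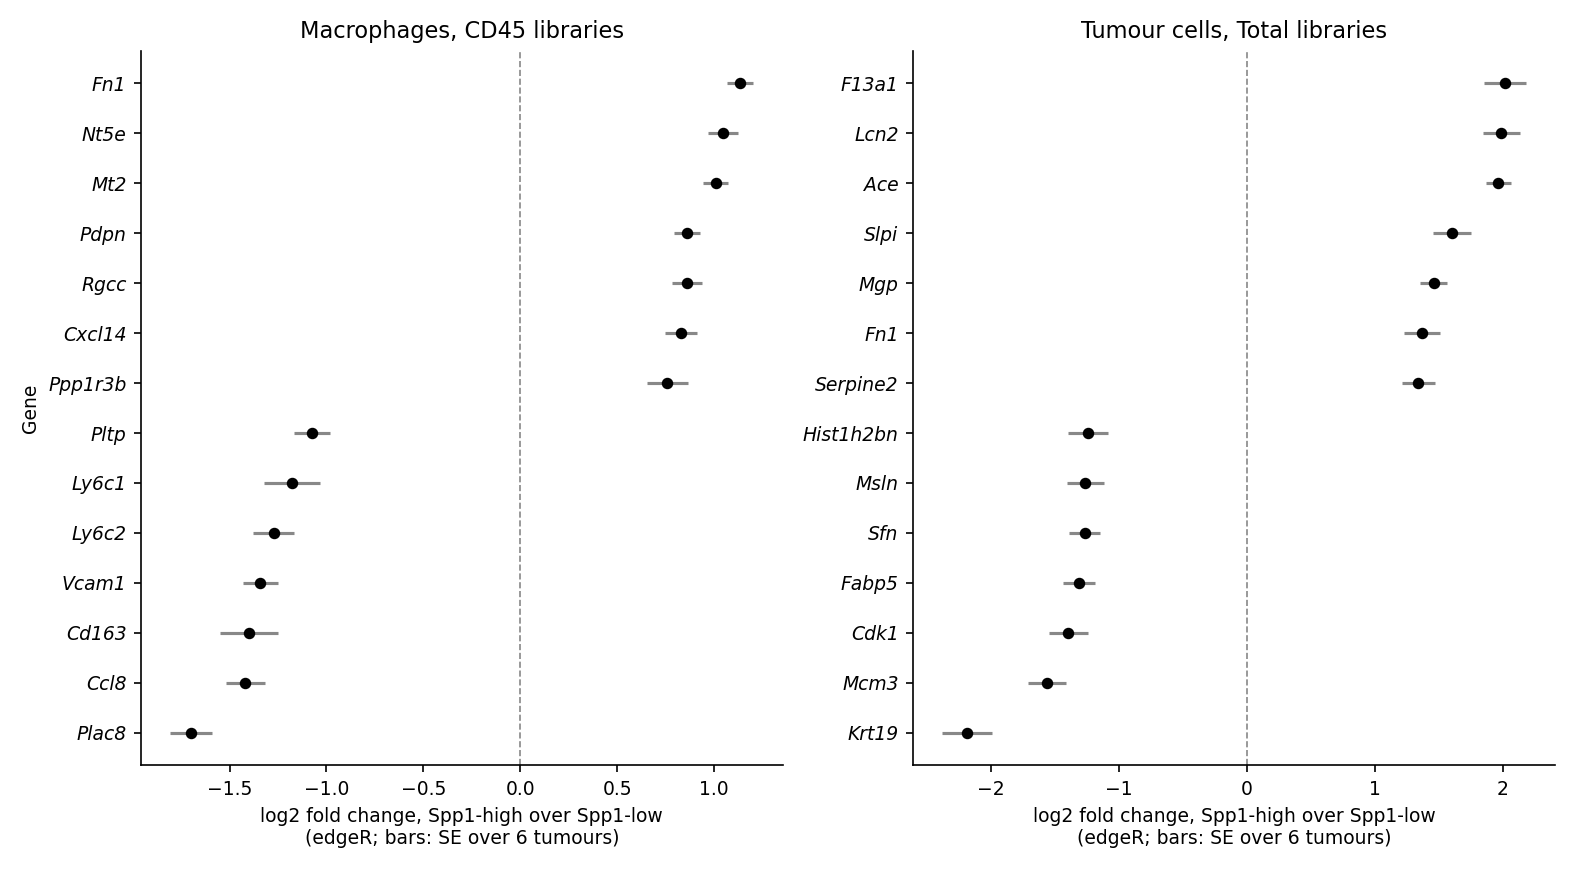
log2 fold change of Spp1-high over Spp1-low cells (points, with SE as bars, edgeR over 6 tumours) for the 7 genes with the largest rise and the 7 with the largest fall among genes past the test, of at least 50 CPM and in the same direction in every tumour. Fn1 is on the high side in macrophages (1.13) and in tumour cells (1.37).

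Tumour cells were split in the same way. Of 8486 genes tested by edgeR, 678 were higher (7.99%) and 506 lower (5.96%) in Spp1-high cells, 14% in all, and with library totals in place of TMM 475 were higher and 765 lower. DESeq2 called 321 higher and 218 lower. The count of 1184 called genes was 785 without EM2, 700 without the parental tumour, 779 with stricter classes and 1816 with cells thinned to 2000 UMIs. Higher were F13a1, a subunit of the clotting transglutaminase factor XIII, with a mean of 317 CPM in high and 82.5 CPM in low cells (2.01), the iron-siderophore binding protein Lcn2 with 1138 and 335 CPM (1.99), the peptidase Ace (1.96), the protease inhibitors Slpi (1.60) and Serpine2 (1.34), Mgp, a matrix inhibitor of mineralisation (1.46), Fn1 with 17996 and 7039 CPM (1.37), Dmp1 (1.30) and Ctla2a (1.29). Dmp1 had 391 CPM in high and 85.8 CPM in low cells of E, 434 and 215 in EM1, 303 and 185 in EM2, 891 and 493 in EM3, 253 and 121 in M, and 973 and 236 in the parental tumour (edgeR adjusted p = 2.80e-08). This neighbour of Spp1 in the SIBLING family was thus higher in Spp1-high tumour cells of each tumour. Lcn2 was also higher in each.

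Lower in Spp1-high tumour cells were Krt19, a keratin, with means of 53.8 and 236 CPM (-2.18), the replication genes Mcm3 (-1.56), Rrm1 (-1.19) and Atad2 (-1.16), the mitotic kinase Cdk1 with 47.6 and 114 CPM (-1.39), the histones Hist1h2bn (-1.24) and Hist1h1e (-1.10), Fabp5 (-1.31), Sfn (-1.27) and Msln (-1.26). Krt19 had 209 CPM in high and 779 CPM in low cells of E, 6.83 and 113 in EM1, and 43.6 and 349 in EM2, but 16.6 and 16.8 in EM3. In M it had 11.7 and 15.6 CPM. The fall was thus large in the tumours with most Krt19 and small or nil in M and EM3. The genes named here as the largest rises and falls were called under all 13 alternatives that kept the tumour block. Without the block edgeR called 14 genes.

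In this split 7.99% of all genes were higher and 5.96% lower. Of 5 osteopontin integrins tested, Itgb3 (1.06) and Itgb5 (0.75) were higher and Itgav (-0.28) and Itga5 (-0.34) lower in Spp1-high tumour cells. Itgb3 was higher in 5 of 6 tumours, with E the exception at 10.7 CPM in high and 17.9 CPM in low cells. Of 5 enzymes, Tgm2 (0.41), Mmp12 (0.93) and Mmp3 (0.82) were higher and Mmp9 (-1.07) was lower. Tgm2 was higher in 6 of 6 tumours, Mmp12 and Mmp3 in only 4 of 6 each, and Mmp9 was lower in 5 of 6. Among 6 hyaluronan genes Cemip, which breaks hyaluronan down, was higher (1.51) and the synthases Has1 (-0.54) and Has2 (-0.35) were lower. Of the list described with Spp1 in macrophages, 3 of 9 tested were higher (Fn1, Cd9 and Ctsb) and 1 lower (Fabp5). Of the list for the opposite programme, 2 of 7 were lower (C1qb and Cxcl10) and 0 higher. Cd44 did not separate the cells: it had 1206 CPM in high and 1311 CPM in low cells of E, 766 and 745 in EM1, 866 and 881 in EM2, 1194 and 1185 in EM3, 670 and 828 in M, and 1028 and 999 in the parental tumour (-0.01, SE 0.09, edgeR adjusted p = 0.988). It was higher in 3 of 6 tumours. The summed macrophage markers were higher in the high cells in 1 of 6 tumours (86.0 to 445 against 144 to 486 CPM) and Ptprc in 0 of 6 (1.18 to 10.7 against 4.27 to 28.6 CPM), while the 6 tumour epithelial markers, keratins among them, were lower in 6 of 6 (1660 to 10888 against 2209 to 10965 CPM). The high cells were deeper in 4 of 6 tumours. The part of these in the result was not tested.

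Granulocytes were split by Spp1 like the macrophages, a step added after the other results were seen. Only cells of at least 1000 UMIs entered the split, and 7014 of 13446 CD45 granulocytes were too shallow. The results below therefore describe the deeper granulocytes. They were fitted by edgeR only, without the alternatives used for CD45 macrophages and tumour cells. In the CD45 libraries 123 of 3611 genes (3.41%) were higher and 183 (5.07%) lower in Spp1-high granulocytes by edgeR, 8.47% in all. The lower genes were led by genes of neutrophil granule proteins. These were Camp, the cathelicidin, with a mean of 111 CPM in high and 615 CPM in low cells (-2.56), Ltf, lactoferrin (-2.08), and Ngp (-1.56). Camp was lower in 6 of 6 tumours, with 35.1 against 1183 CPM in the parental tumour and 19.9 against 50.3 CPM in M. Also lower were Cdkn2d (-1.37), Nos2 (-1.17) and Ifitm6 (-0.93). The higher genes included the chemokine Ccl4 (0.85), Cyp4f18 (0.75), Dusp6 (0.66) and Thbs1, a matrix protein (0.63). Of the list described with Spp1 in macrophages, 2 of 9 tested were higher (Thbs1 and Cd9) and 2 lower (Hmox1 and Lgals3). Of 6 genes tested from the opposite list, 0 were called. Cd44 was higher in Spp1-high granulocytes in 6 of 6 tumours, with means of 3239 and 2677 CPM (0.28, SE 0.06, edgeR adjusted p = 0.00205), the opposite sign to macrophages, and the difference between the 2 classes was not tested. Ptprc was lower in the high cells in 6 of 6 tumours (513 to 844 against 635 to 905 CPM), and the tumour epithelial markers were higher in 4 of 6 (0 to 43.9 against 0 to 22.5 CPM). The part of these in the result was not tested. In the Total libraries, over 5 tumours (EM1 had under 50 high cells and was left out), 29 of 4083 genes (0.71%) were higher and 101 (2.47%) lower, 3.18% in all, again led by Camp (-3.14), Ltf (-2.18) and Ngp (-2.03). Cd44 was higher in 5 of 5 there and not called (0.21, edgeR adjusted p = 0.272).

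The split of Total macrophages called 104 of 8248 genes higher (1.26%) and 213 lower (2.58%) by edgeR, 3.84% in all. This split was also added after the other results and was fitted by edgeR only, without the alternatives. Fn1 (0.90), Cxcl14 (0.81), Nt5e (0.77), Mt2 (0.75) and Arg1 (0.63) were higher here too. The lower genes were led by mast cell proteases, Tpsb2 (-3.20), Mcpt2 (-3.04) and Tpsab1 (-2.91), which were not among the 10 largest falls of the CD45 macrophages. Tpsab1 had a mean of 123 CPM in high and 657 CPM in low cells. No mast cell class was annotated and no marker sums were taken for this split. The part of mast cells within the class was not tested. Of the list described with Spp1 in macrophages, 4 of 11 were higher here (Fn1, Gpnmb, Cd9 and Arg1) and 0 lower. Trem2 (0.23, edgeR adjusted p = 0.220) and Hmox1 (-0.21, edgeR adjusted p = 0.0676) were not called. Of the opposite list, 4 of 10 were lower (Cxcl9, Cd163, H2-Ab1 and H2-Aa) and 0 higher. Cxcl9, H2-Ab1 and H2-Aa were each lower in 5 of 6 tumours, and Cxcl10 was not called (edgeR adjusted p = 0.286). Cd44 was not called in Total macrophages (-0.23, edgeR adjusted p = 0.0965).

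Genes whose levels ran most like those of each member were taken over 47 class-and-tumour sums of the Total libraries, among 8752 genes of at least 50 CPM in 1 of them. For Spp1 these were Timp2, an inhibitor of matrix metalloproteases (Pearson r of log2(CPM + 10) 0.85), Rhou (0.84), S1pr2 (0.83), Ltbp3 (0.83), Ier3 (0.82), Ptpn23 (0.81), Fn1 (0.81) and Pdgfc (0.81). For Cd44 they were Prdx5 (0.83), the myeloid transcription factor Cebpb (0.83), Rffl (0.83), Pfkfb4 (0.81), Gpat3 (0.80), Blcap (0.80), Mapkapk2 (0.79) and Homer1 (0.78). The sums share libraries and depth within a tumour, so these values are a description. No gene was on both lists.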

How the data were processed

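The labels' protocols name both a fixed-RNA sample preparation kit and 3′ reagent kits, so which chemistry gave the counts, and whether libraries that share droplet barcodes were run together, is not settled by the sources used here. Cell Ranger and mm10 are named in the submitters' processing notes, and doublet removal is not given in the sources used here. The authors deposited whole-number UMI counts per gene and cell, and, per the file headers, tables giving each cell's annotation, its count of UMIs and genes, the percent and the fraction of mitochondrial UMIs, and a ratio of log genes to log UMIs. From these, counts were summed per annotated class and library and given as CPM, with 95% exact Poisson intervals, and 95% exact Clopper-Pearson intervals for shares. Totals were 28083101 to 122055131 UMIs per library. Doublets were scored with Scrublet's method in Python (scanpy 1.11.5, 2 simulated doublets per cell, 30 principal components). Over the 6 tumours, edgeR 4.0.16 (R 4.3.3) tested class sums or split sums with tumour as a block, the block pairing sums of the same animal, with Benjamini-Hochberg adjustment over all genes tested and a threshold of 0.05. DESeq2 1.42.0 was an alternative. Clone differences are log2(CPM + 10) ratios with 1 tumour each and no test, and a gene counted there had at least 50 CPM in either tumour. Fits were tested on simulated data. Named genes were every list member past the test where described, the 10 largest rises and falls per split with at least 50 CPM and the same direction in every tumour (1 of them is not reported here), and the 8 genes most like each member. Members, lists and rules were chosen with earlier results of these data known. Library totals without TMM, splits of Total macrophages and of granulocytes, Cxcl9 in Total macrophages, and the pairs EM3 with E and EM2 with EM1 were added after seeing the data.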

Additional observations from a re-analysis of the deposited data

Results flagged for a closer look

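In 22 groups of 6 tumours (Spp1 or Cd44 in 1 class), 3 had a tumour far from the other 5, with a gap to its neighbour over 0.625 of the group's range. Chance flags about 1 group in 20. They were Spp1 in parental fibroblasts (6909 CPM, 0.657 of the range) and parental dendritic cells (1373 CPM, 0.682), both in Total libraries, and Cd44 in E fibroblasts (1399 CPM, 0.628). Keratins, the epithelial genes, were also highest in these parental classes, at 843.5 CPM in fibroblasts (126 to 382 CPM in the other 5 tumours) and 336 CPM in dendritic cells (92.3 to 177 CPM), and Spp1 in parental Total B cells was the highest of the 6, at 1733 CPM. Their part in the values was not tested.

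Spp1 of M and EM3 differed from clone E in opposite directions in tumour cells and CD45 macrophages: 0.34 for M in tumour cells against -0.26 in macrophages, and 0.37 for EM3 in tumour cells against -0.54 in macrophages (log2). The tumour cell values fell to 0.19 and 0.16 with stricter classes, and M in macrophages was -0.035 as a mean over single cells. Each rests on 1 tumour per clone, and the difference was not tested. The same opposite directions against E were found in EM1 (0.24 in tumour cells and -1.87 in macrophages) and EM2 (0.56 and -0.82), so they are not particular to M and EM3. E had the lowest tumour cell Spp1 of the 6 tumours, and the parental tumour was above it in both classes (0.25 and 0.79).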

How the results depend on the processing

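Spp1 stayed lower in macrophages than in tumour cells, past the edgeR threshold, under every alternative tried. Cd44 was not called in that comparison without a low-count filter (0.35, edgeR adjusted p = 0.127) or with library totals (0.18). Between Spp1-high and Spp1-low cells, DESeq2 called 288 genes in macrophages and 539 in tumour cells, against 869 and 1184 by edgeR. Without the replicate block that pairs sums of the same animal, edgeR called 1 and 14 genes (807 and 622 at an unadjusted p under 0.05). Cd44 between those macrophages then had an edgeR adjusted p of 0.699, while Spp1 (-1.04) and Cd44 (0.56) between macrophages and tumour cells kept their calls without pairing. For tumour cells, leaving out 1 tumour gave 700 to 1337 genes, stricter classes 779 and thinning to 2000 UMIs 1816. For M and EM3 over E, stricter classes gave Spp1 in tumour cells 0.19 and 0.16, and Cd44 for EM3 -0.055. Averaging single-cell CPM gave Spp1 0.59 and 0.50 in tumour cells and -0.035 and -0.42 in macrophages, and Cd44 -0.69 and -0.041 in tumour cells and -0.60 and -0.039 in macrophages. Without the 10 most abundant genes in the total, Spp1 was 0.40 for EM3 in tumour cells and -0.29 and -0.56 in macrophages, and Cd44 in macrophages -0.68 and -0.027. Total libraries gave macrophage Spp1 -0.48 for EM3, and Cd44 -0.81 and -0.37. Of 52 such values 51 kept their sign, and the largest shift was 0.36. The causes were not tested. With doublets kept, 5 of 60 levels left their interval, and all 60 were 98.0% to 102% of the reported value. With at least 650 genes per cell, 16 of 60 left it, at 47.9% to 102%. The shallow depth of granulocytes and the Spp1 UMIs in lymphocytes, whose source was not tested, limit what single cells show.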
